A study of Mus musculus with 38 samples.

Results

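The transcripts of 10 genes of the BCL2 family were followed through chemotherapy in mouse models of high-grade serous ovarian cancer (HGSOC). The genes were *Bcl2*, *Bcl2l1*, *Bcl2l2*, *Mcl1*, *Bcl2a1b*, *Bak1*, *Bcl2l11*, *Bid*, *Bik* and *Pmaip1*. They were taken as the rows, among 55487 genes, whose Ensembl identifier carries one of these symbols, and each was found in the tumor table and in the cell line table. The list was drawn up to leave out the family members best known as direct targets of p53, *Bax* and *Bbc3*, although *Pmaip1* (Noxa) is itself widely described as a p53 target.

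RNA was sequenced, after depletion of ribosomal RNA, from whole omental tumors of 2 syngeneic models and from the same cell lines in monoculture. The 60577 cells were injected intraperitoneally into female FVB mice and the HGS2 cells into female C57BL/6J mice, at 8 to 9 weeks of age. Treated mice received 3 weekly doses of carboplatin (20 mg/kg) with paclitaxel (10 mg/kg), a platinum and taxane combination (chemo), from day 21 after injection for 60577 and from day 49 for HGS2. Control mice were given vehicle once weekly in place of the drugs. Time was counted from the last dose, with TP1 at 1 day, TP2 at 7 days and TP3 at 21 days. There were 3 control and 3 treated 60577 tumors at TP1, 3 and 4 at TP2, and 4 treated tumors at TP3. For HGS2 there were 3 control and 3 treated tumors at TP1, 4 and 3 at TP2, and 4 treated tumors at TP3, of which 3 entered the tests. No control tumors were sequenced at TP3, so treated tumors at TP3 were set against the TP2 controls. Each cell line was sequenced as 2 libraries. Each model stands on 1 cell line in 1 mouse strain, so line and strain cannot be told apart, and the engineered alleles of the lines are not given in the sources used here. The summed expected counts ran from 17839635 to 49299442 per tumor (median 27358649) and from 31633121 to 42461995 per cell line library.

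BCL2 proteins govern the intrinsic pathway of apoptosis at the mitochondrial outer membrane. Pro-survival members (BCL2, BCL-XL encoded by *Bcl2l1*, BCL-W encoded by *Bcl2l2*, MCL1 and A1) bind and hold back the effectors BAK and BAX, which otherwise form pores and release cytochrome c. The BH3-only members (BIM encoded by *Bcl2l11*, BID, BIK and NOXA encoded by *Pmaip1*) occupy the pro-survival proteins or act on the effectors directly. BID also links the death receptors to this pathway, since caspase-8 cleaves it. In blood cells the family is used differently by lineage: BCL2 is prominent in resting lymphocytes and A1 in activated myeloid and lymphoid cells. Much of the family is controlled at the level of protein, which RNA does not show.

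In 60577 tumors 3, 4 and 6 of the 10 members passed at TP1, TP2 and TP3, beside 33.3%, 58.4% and 51.4% of all genes tested, so the members did not stand out by their number. *Mcl1* was higher 1 and 21 days after the last dose, *Bcl2a1b* at 1 day, and *Bcl2* at 7 and 21 days. *Bcl2l1* was higher at 1 day and lower at 21 days. *Bcl2l11* and *Bcl2l2* were lower at 7 and 21 days, *Bak1* at 7 days and *Bid* at 21 days. Within HGS2, with all libraries tested, neither any member nor any other of the 16241 genes tested passed in any comparison by edgeR.

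The promoter of *Bcl2l11* is shown because this member was called lower in 60577 at both 7 and 21 days. These calls held with each library left out in turn. The call at 7 days was lost with the share of counts on 7SL RNA, described below, as a covariate. The sequence is from RefSeq (GRCm38.p6) and covers 250 bases before to 50 bases after the annotated start, at chr2:128125788-128126087 on the plus strand. Capitals mark the only match to GTAAACA, the core letters bound by forkhead (FOXO) factors, searched on both strands. It begins 227 bases before the start.
Bcl2l11: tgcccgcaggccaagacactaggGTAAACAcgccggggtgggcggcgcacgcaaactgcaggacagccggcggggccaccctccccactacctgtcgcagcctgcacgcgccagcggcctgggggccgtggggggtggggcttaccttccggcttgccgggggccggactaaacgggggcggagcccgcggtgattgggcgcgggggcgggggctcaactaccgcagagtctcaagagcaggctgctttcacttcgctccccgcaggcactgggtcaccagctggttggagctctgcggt
GTAAACA was found in 3.65% of 32851 RefSeq promoter windows of this length. No other window examined for *Bcl2*, *Bcl2l1*, *Bcl2l2*, *Mcl1*, *Bcl2a1b*, *Bak1*, *Bcl2l11* or *Bid* held it. The E2F-type letters TTTNNCGC, which do not overlap GTAAACA, were found in 5.17% of promoters and, among these members, only in 1 of the *Bcl2l1* windows (chr2:152830668-152830967, minus strand). A match of letters is a description and not a binding site.

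The pro-survival genes lie on separate chromosomes except where stated (GRCm38, GENCODE M21). *Bcl2* (ENSMUSG00000057329) spans chr1:106538178-106714274 on the minus strand, *Bcl2l1* spans chr2:152780668-152831728 on the minus strand, and *Bcl2l2* spans chr14:54883377-54888234 on the plus strand. *Mcl1* spans chr3:95658788-95663176 and *Bcl2a1b* chr9:89199209-89207827, both on the plus strand. The effector *Bak1* spans chr17:27019810-27029009 on the minus strand. Of the BH3-only genes, *Bcl2l11* spans chr2:128126038-128162547 on the plus strand, sharing its chromosome with *Bcl2l1*, *Bid* spans chr6:120891930-120916853 on the minus strand, *Bik* spans chr15:83526862-83544634 and *Pmaip1* chr18:66458533-66465565, both on the plus strand. All counts were per gene over all annotated exons, so splice forms such as the long and short products of *Bcl2l1* were not separated. Exons of *Bid*, *Bak1* and *Bcl2* overlap those of *Bcl2l13*, *Ggnbp1* and D630008O14Rik on the other strand. Exons of *Bcl2l2* and *Bcl2a1b* overlap those of Gm20521 and Gm29094 on the same strand, where strand cannot part the reads, so their values are uncertain to that extent. The libraries were strand-specific, but whether the counting used strand is not stated in the sources used here. *Bcl2a1b* has near-identical copies, *Bcl2a1a* and *Bcl2a1d*, between which reads may have been split, so its values are uncertain.

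Before the changes, the levels were compared per kilobase of exon (RPKM, computed here from the counts with scaling for gene length and library size). In control 60577 tumors *Mcl1* was the most abundant member, with a median of 69.7 RPKM over 6 tumors. *Bcl2l2*, *Bak1*, *Bcl2l1* and *Bcl2a1b* followed at 16.6, 16.4, 15.9 and 13.9 RPKM, with overlapping ranges. *Bcl2l11* stood at 10.2 RPKM, overlapping *Bcl2a1b*, and *Bid* below it at 7.17 RPKM. *Bcl2* and *Pmaip1* overlapped at 5.08 and 4.68 RPKM, and *Bik* was lowest at 0.566 RPKM.

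In control HGS2 tumors *Mcl1* was again highest, with a median of 90.3 RPKM over 7 tumors, and did not overlap any other member. All other neighbors in the order overlapped. They ran from *Bak1* (26.8 RPKM), *Bcl2a1b* (18.9), *Bcl2l2* (15.9) and *Bcl2l1* (9.28) to *Bcl2l11* (5.96), *Bid* (4.93), *Bcl2* (4.07), *Pmaip1* (2.41) and *Bik* (0.309).

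**Figure D1:**
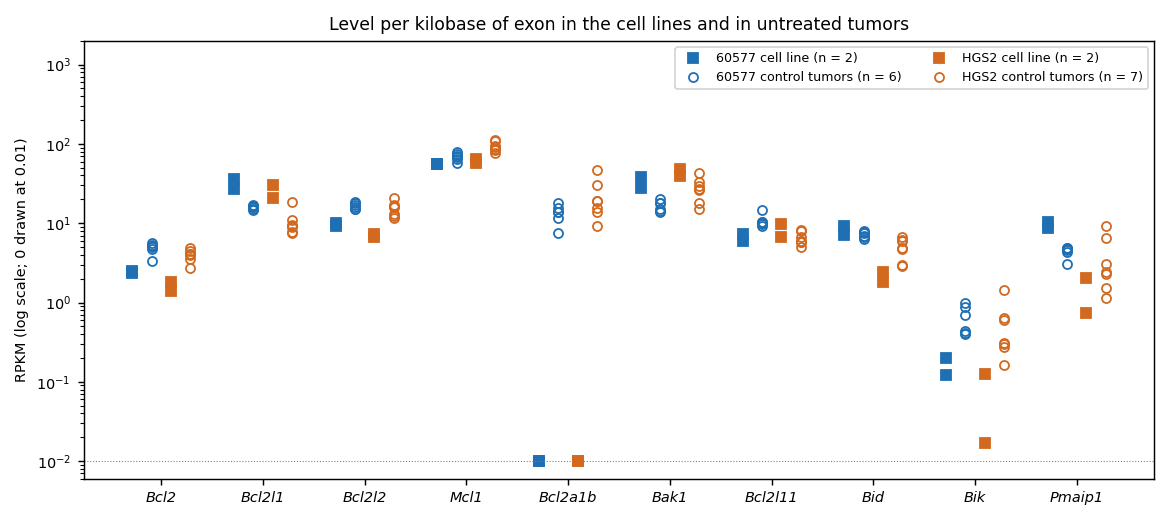
Level of each member in RPKM on a log axis, in the cell lines (squares, n = 2 each) and the control tumors (circles, n = 6 for 60577 and n = 7 for HGS2), with 60577 in blue and HGS2 in orange and 0 drawn at 0.01. *Mcl1* is highest in all 4 sets and *Bcl2a1b* is at 0 in both cell lines; tumors and cell lines were scaled separately.

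The cell lines show what the malignant cells expressed without a tumor around them. *Bcl2a1b*, the A1 gene, had a count of 0 in all 4 cell line libraries, which allows up to 0.0822 and 0.0673 CPM (the count as a share of the library's total, scaled between libraries by TMM) in the 60577 libraries and up to 0.101 and 0.0809 CPM in the HGS2 libraries at a limit of 3 counts, counting error only. In the 33 tumors tested it lay between 6.20 and 37.9 CPM. *Bik* was near the floor, at 0.192 and 0.314 CPM in 60577 cells and at 0.202 and 0.0270 CPM in HGS2 cells, and neither gene passed the filter for testing there. *Mcl1* was the highest member in both lines (median 55.9 RPKM in 60577 cells and 60.6 RPKM in HGS2 cells).

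*Bcl2* stood at 21.9 and 22.8 CPM in 60577 cells and at 12.9 and 16.5 CPM in HGS2 cells, below every tumor of the same model, although tumors and cell lines were scaled separately and no test was made between them. *Bcl2l1* stood at 124 and 164 CPM in 60577 cells and at 95.6 and 138 CPM in HGS2 cells, above every tumor of the same model on the same caution. *Ptprc* (CD45), the pan-leukocyte marker, was at 0 to 0.0548 CPM in 60577 cells and at 0 in HGS2 cells. The macrophage genes summed to 1.16 to 4.67 CPM in the lines, led by *Cd68*, and the plasma cell genes to 169 to 292 CPM, led by *Sdc1* and *Xbp1*, which epithelial cells also express. The lists for fibroblasts and mesothelium do not mark host cells alone, since the fibroblast genes summed to 803 and 1806 CPM in 60577 cells and to 11176 and 21084 CPM in HGS2 cells, and the mesothelial genes to 2923 to 3249 CPM and 1598 to 2568 CPM. As epithelial lines the 2 differed, with *Krt8* at 1138 and 1203 CPM in 60577 cells and at 76.2 and 158 CPM in HGS2 cells, and *Pax8*, a Müllerian marker, was at most 0.269 CPM in either. *Wt1*, another marker of serous tumors, was present, at 378 and 392 CPM in 60577 cells and at 267 and 287 CPM in HGS2 cells.

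Between the lines, 2 of the 8 members tested differed, both lower in HGS2, beside 18.9% of the 13742 genes tested. *Bid* was at 25.5 and 32.3 CPM in 60577 cells and at 8.59 and 6.47 CPM in HGS2 cells. The log2 difference was -1.94 ± 0.26 (SE, n = 2 per line, adjusted p = 0.011 from the quasi-likelihood test of edgeR, adjusted by the Benjamini-Hochberg method). *Pmaip1* was at 28.5 and 23.7 CPM in 60577 cells and at 5.59 and 2.02 CPM in HGS2 cells, a log2 difference of -2.78 ± 0.51 (edgeR adjusted p = 0.0223). For both genes the libraries of the lines did not overlap. The call on *Bid* was lost without 60577 replicate 2 and that on *Pmaip1* without either 60577 replicate, fits that leave the 60577 line with 1 library assumed to vary like the other line. Whether the 2 libraries of a line came from separate cultures is not stated in the sources used here, so the p-values measure the spread between these libraries, which may be technical. Of the other BCL2 family genes, *Bok* was lower in HGS2 cells (log2 -1.57, edgeR adjusted p = 0.0415), and of the apoptosome genes, *Htra2* (-1.24) was lower.

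Some tumor libraries stood apart. The 2 7SL RNA genes encode a cytoplasmic non-coding RNA that ribosomal depletion leaves in place. In 60577 their share of all counts was 19.4% and 26.5% in TP2 treated replicates 3 and 4, against 9.38% and 13.1% in replicates 1 and 2. The TP1 controls were at 4.91%, 4.77% and 3.59% and the TP1 treated tumors at 7.87%, 7.99% and 15.4%, so at TP1 the share went with treatment. It was 14.1%, 2.91% and 3.81% in the TP2 controls and 2.69%, 1.93%, 5.89% and 2.49% in the TP3 treated tumors. In HGS2, TP1 control replicate 3, TP2 control replicate 2 and TP3 treated replicate 2 carried 57096, 109536 and 56888 CPM of 6 pancreatic acinar genes. The same 3 libraries had the highest 7SL shares of HGS2 (13.0%, 20.9% and 15.2%), so leaving them out changes both at once. Calls on members that rest on these libraries are also given without them. HGS2 TP3 treated replicate 1, which the study's own tables leave out, was not used in the tests. No replicate pair within a group agreed within sampling noise.

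At TP1, 1 day after the last dose, the members that rose in 60577 were pro-survival genes. *Mcl1*, which encodes a short-lived pro-survival protein, was at 195, 237 and 240 CPM in the controls and at 329, 285 and 414 CPM in the treated tumors. The groups did not overlap, and the log2 fold change was 0.62 ± 0.16 (SE; edgeR adjusted p = 0.0077), a 1.54-fold rise. *Bcl2l1* was at 73.1, 67.3 and 70.1 CPM in the controls and at 87.9, 81.8 and 108 CPM after chemo. All treated tumors were above all controls, with a log2 fold change of 0.41 ± 0.12 (edgeR adjusted p = 0.0139).

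*Bcl2a1b* showed the largest change of the list at this time. It was at 6.20, 12.8 and 11.4 CPM in the controls and at 25.7, 22.6 and 21.7 CPM in the treated tumors, a 2.32-fold rise (log2 1.22 ± 0.33, edgeR adjusted p = 0.0103). The groups were again separate, and with *Bcl2a1a*, *Bcl2a1b* and *Bcl2a1d* summed the log2 fold change was 1.24 (edgeR adjusted p = 0.00805). Without TP1 control replicate 1, the lowest of the group, *Bcl2a1b* had an adjusted p of 0.0525 by edgeR.

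Of all 10 members, 3 were higher and 0 lower at TP1 in 60577, beside 33.3% of the 16241 genes tested that passed in either direction. The median log2 fold change of the members was 0.06, against -0.002 over all genes. *Bcl2* stood at 46.8, 48.7 and 42.8 CPM in controls and 46.6, 58.6 and 61.0 CPM after chemo, a log2 fold change of 0.27 that did not pass (edgeR adjusted p = 0.196). The effector *Bak1* and the 4 BH3-only members did not pass either. *Bcl2l1* was no longer called when TP1 control replicate 2 or TP1 treated replicate 3 was left out, nor with the 7SL share as a covariate (log2 0.32, edgeR adjusted p = 0.0873), a setting chosen after seeing the data.

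Genes of the rest of the pathway also changed at TP1, among them *Bax* and *Bbc3*, the p53 targets outside the list. *Bax*, the other pore-forming effector, was at 19.9, 21.3 and 20.5 CPM in the controls and at 51.5, 48.4 and 59.6 CPM after chemo (log2 1.38 ± 0.16, edgeR adjusted p = 3.29e-05). *Bbc3*, which encodes the BH3-only protein PUMA, rose by 1.10 ± 0.15 on the log2 scale (edgeR adjusted p = 8.12e-05). Of the 10 tested of 14 other BCL2 family genes, 3 were higher and 2 lower: *Bcl2a1a* (log2 1.42) was also higher, and the BH3-only gene *Bmf* (log2 -0.81) was lower. Of 14 apoptosome and caspase genes, 4 were higher, among them *Birc3* (cIAP2, log2 0.77) and *Endog* (log2 0.70), and 3 were lower, among them *Birc5* (survivin, log2 -1.81). Of 7 genes of the death receptor arm upstream of BID, *Fas* (log2 0.84) and the caspase-8 inhibitor *Cflar* (log2 0.40) were higher and 0 were lower.

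Cell type markers moved in the same tumors. The 3 pan-leukocyte genes, all of which passed as higher, summed to 139, 260 and 228 CPM in the controls and to 453, 488 and 486 CPM in the treated tumors. The 6 macrophage genes, with *Csf1r* or *C1qb* most abundant and none at 0, summed to 501, 872 and 801 CPM in controls and to 1101, 1186 and 963 CPM after chemo, and 1 of 6 passed. All 5 neutrophil genes tested were higher, with sums of 14.2, 34.99 and 37.3 CPM in controls and 376, 72.9 and 675 CPM after chemo. All 5 adipocyte genes were higher as well, with sums of 3.40, 6.77 and 9.03 CPM in controls and 31.9, 477 and 11.04 CPM after chemo. Of the 6 fibroblast genes, led by *Col1a1* or *Col3a1*, 5 were higher, with sums of 4555, 7215 and 7519 CPM and then 22406, 14236 and 18939 CPM. Of the 6 T cell genes, 5 were higher, while 5 of 5 dividing cell genes and 4 of 4 mesothelial genes were lower. The mesothelial sums were 2007 to 2162 CPM in these controls, below those of the cultured 60577 cells, so that list does not mark another cell type alone here. The 7 epithelial genes, *Krt19* most abundant, fell from 1581, 1858 and 1974 CPM to 496, 631 and 324 CPM, and 6 of 6 tested were lower. In a whole tumor, fewer cells of a type and less RNA per cell cannot be told apart, and the part of these shifts in the members' changes was not tested.

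**Figure D2:**
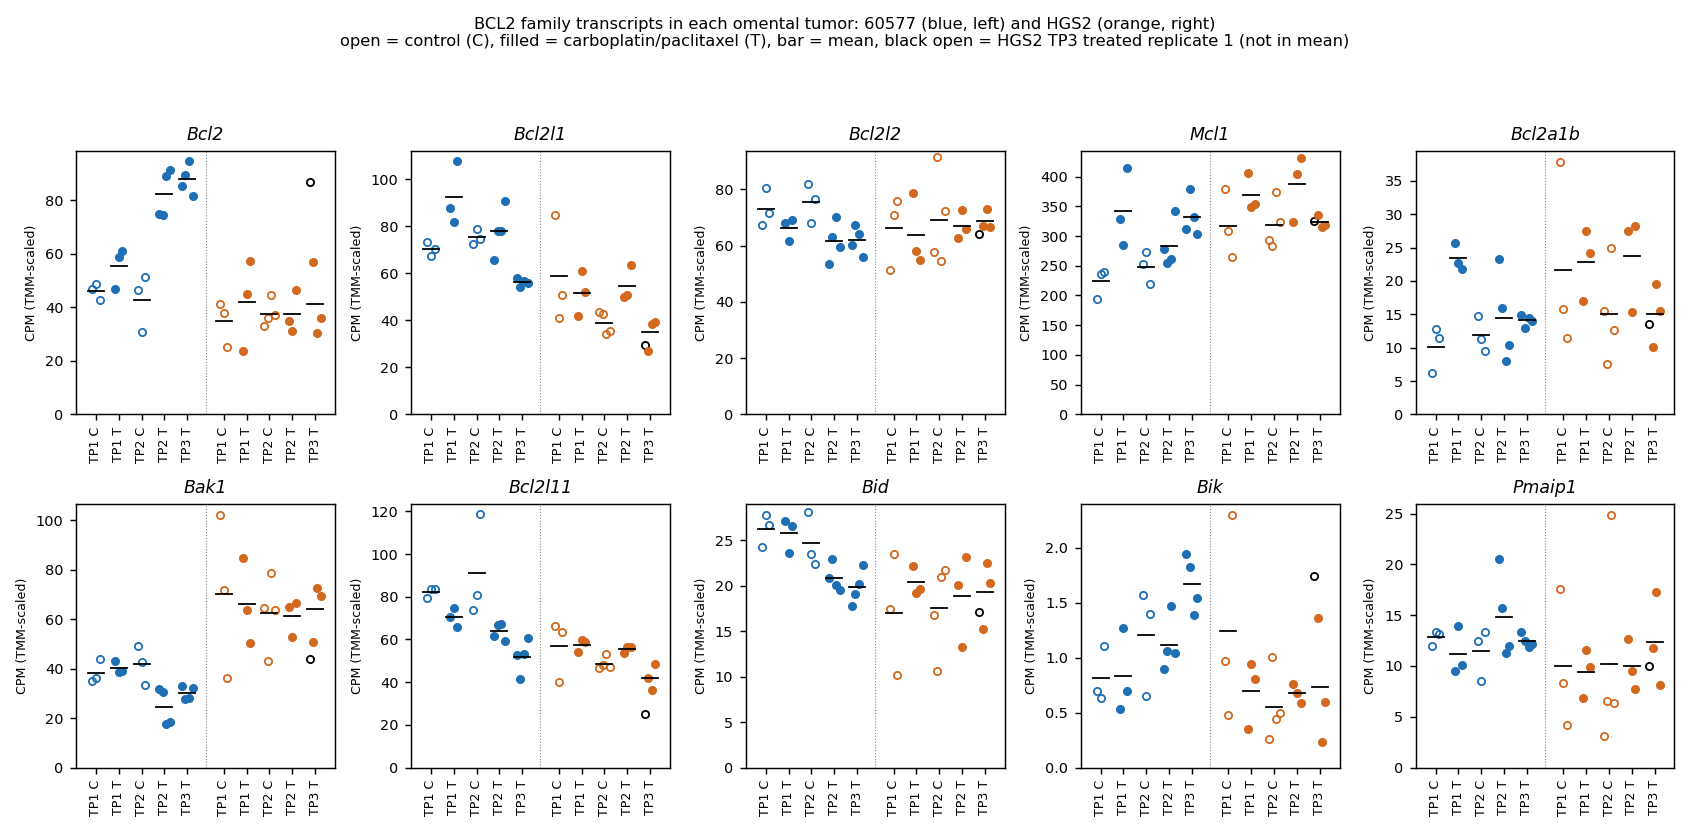
Level of each member in CPM, scaled by TMM, in each of the 34 omental tumors (points) with the group mean (bar), 60577 in blue at left and HGS2 in orange at right; open points are controls, filled points treated tumors, and the black open point is HGS2 TP3 treated replicate 1, which is not in the mean. In 60577 every treated tumor at TP2 and TP3 is above every TP2 control for *Bcl2* and below every TP2 control for *Bcl2l11*, while for *Bcl2* the HGS2 treated and control groups overlap.

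At TP2, 7 days after the last dose, *Bcl2* was the member that rose in 60577. It was at 46.3, 30.9 and 51.4 CPM in the controls and at 74.9, 74.6, 88.8 and 91.4 CPM in the treated tumors. All 4 treated tumors were above all 3 controls, and the level was 1.91-fold higher (log2 0.94 ± 0.15, edgeR adjusted p = 1.34e-04). Without TP2 treated replicates 3 and 4 the log2 fold change was 0.81 (edgeR adjusted p = 0.00211), and with the 7SL share as a covariate it was 0.70 (edgeR adjusted p = 0.00671).

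*Bak1*, the effector held in check by MCL1 and BCL-XL, went the other way. It was at 48.99, 42.8 and 33.4 CPM in the controls and at 31.8, 30.3, 17.7 and 18.2 CPM in the treated tumors, the last 2 values being from the libraries richest in 7SL. The log2 fold change was -0.78 ± 0.19 (edgeR adjusted p = 0.00356) with all 4, and -0.43 (edgeR adjusted p = 0.0338) without replicates 3 and 4. The groups did not overlap in either case.

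*Bcl2l11*, which encodes the BH3-only protein BIM, was lower. Its controls were at 73.7, 81.0 and 119 CPM and its treated tumors at 61.8, 66.7, 67.4 and 59.0 CPM, a log2 fold change of -0.52 ± 0.14 (edgeR adjusted p = 0.00579). Without TP2 control replicate 3, the library at 119 CPM, it was -0.30 and still called. It was -0.50 (edgeR adjusted p = 0.0347) without replicates 3 and 4 and -0.40 (edgeR adjusted p = 0.109) with the 7SL share as a covariate. *Bcl2l2*, for the pro-survival protein BCL-W, was at 82.0, 68.1 and 76.7 CPM in the controls and at 53.4, 63.0, 70.2 and 59.4 CPM after chemo. Its log2 fold change of -0.31 ± 0.10 passed (edgeR adjusted p = 0.0206) although 1 treated tumor overlapped the controls, and it did not pass without TP2 control replicate 1 (edgeR adjusted p = 0.0921). Without treated replicates 3 and 4 it was -0.38 (edgeR adjusted p = 0.0158).

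In all, 1 member was higher and 3 were lower at TP2 in 60577, beside 58.4% of all genes tested, with a median of -0.04 over the members and 0.03 over all genes. *Mcl1* and *Bcl2l1*, higher at TP1, did not pass at TP2. *Mcl1* was at 253, 273 and 219 CPM in controls and 278, 255, 262 and 341 CPM after chemo, and *Bcl2l1* was at 72.6, 78.7 and 74.6 CPM in controls and 65.7, 77.9, 78.0 and 90.9 CPM after chemo. *Bid* just missed the threshold (log2 -0.25 ± 0.11, edgeR adjusted p = 0.0508), and its adjusted p was 0.26 without replicates 3 and 4, 0.0291 without TP2 control replicate 3 and 0.0341 without TP2 treated replicate 2. Without replicates 3 and 4, *Bcl2a1b* (log2 0.73, edgeR adjusted p = 0.0348) and *Pmaip1* (log2 0.67, edgeR adjusted p = 0.0135) were also called higher.

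*Bax* and *Bbc3* were still higher at TP2, by 0.79 and 0.83 on the log2 scale, together with *Bcl2a1d* (1.61) and *Bcl2a1a* (1.10), while *Bad*, another BH3-only gene, was lower (-0.72). That made 4 higher and 3 lower of 10 other BCL2 family genes. With *Bcl2a1a*, *Bcl2a1b* and *Bcl2a1d* summed, the log2 fold change was 0.52 and did not pass (edgeR adjusted p = 0.142). Of the apoptosome and caspase genes, 4 were higher and 8 lower of 14, with a median of -0.46. The inhibitor of apoptosis genes split: *Birc2* (cIAP1, log2 1.13) and *Birc3* (log2 1.18) were higher and *Birc5* (log2 -2.21) was lower, as was *Cycs*, for cytochrome c (log2 -1.09). In the death receptor arm *Fas* (log2 0.56) and *Cflar* (log2 0.41) were higher, and *Tnfrsf1a* (log2 -0.72) and *Ripk1* (log2 -0.37) were lower.

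Markers of several other cell types moved in the same tumors as *Bcl2*, lymphocytes among them. The 6 B cell genes, all called higher and none at 0, summed to 18.7, 3.01 and 11.8 CPM in the TP2 controls and to 174, 69.2, 179 and 191 CPM in the treated tumors. The 6 T cell genes, also all higher, summed to 18.1, 5.25 and 8.22 CPM and then to 138, 78.8, 78.9 and 91.4 CPM. In the cultured 60577 line the same B cell genes summed to 0 and 0.292 CPM, with *Ms4a1* at 0 in both libraries, and *Cd3d* and *Cd3g* were at 0.

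Markers of dividing and of epithelial cells fell with *Bcl2l11* and *Bak1*. The 5 dividing cell genes, led by *Mki67*, summed to 523, 522 and 495 CPM in controls and to 138, 190, 119 and 129 CPM after chemo, and 5 of 5 were lower. The epithelial genes summed to 1881, 2893 and 2013 CPM and then to 337, 583, 303 and 307 CPM. In the cultured 60577 line, scaled separately, the dividing cell genes summed to 1214 and 1541 CPM and the epithelial genes to between 4332 and 4610 CPM. There *Bcl2l11* was at 48.5 and 58.3 CPM, below these controls, and *Bak1* at 92.3 and 67.5 CPM, above them.

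Adipocyte and pancreatic markers had the largest median differences of the cell type lists. All 5 adipocyte genes were higher, with a median log2 fold change of 5.75, and summed to 16.9, 2.58 and 13.3 CPM in controls and to 607, 107, 81.2 and 94.8 CPM after chemo, led by *Plin1*. All 6 pancreatic acinar genes were lower, with a median of -7.05, but their sum differed widely among the controls, at 1354, 9.94 and 205 CPM against 7.59, 18.7, 6.08 and 7.57 CPM after chemo. Of the other lists, 2 of 3 pan-leukocyte, 4 of 6 fibroblast and 1 of 6 macrophage genes were higher, and 3 of 5 neutrophil, 3 of 4 mesothelial and 1 of 4 plasma cell genes were lower, with 0 of 4 endothelial genes called. The part of any of these markers in the members' changes was not tested.

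**Figure D3:**
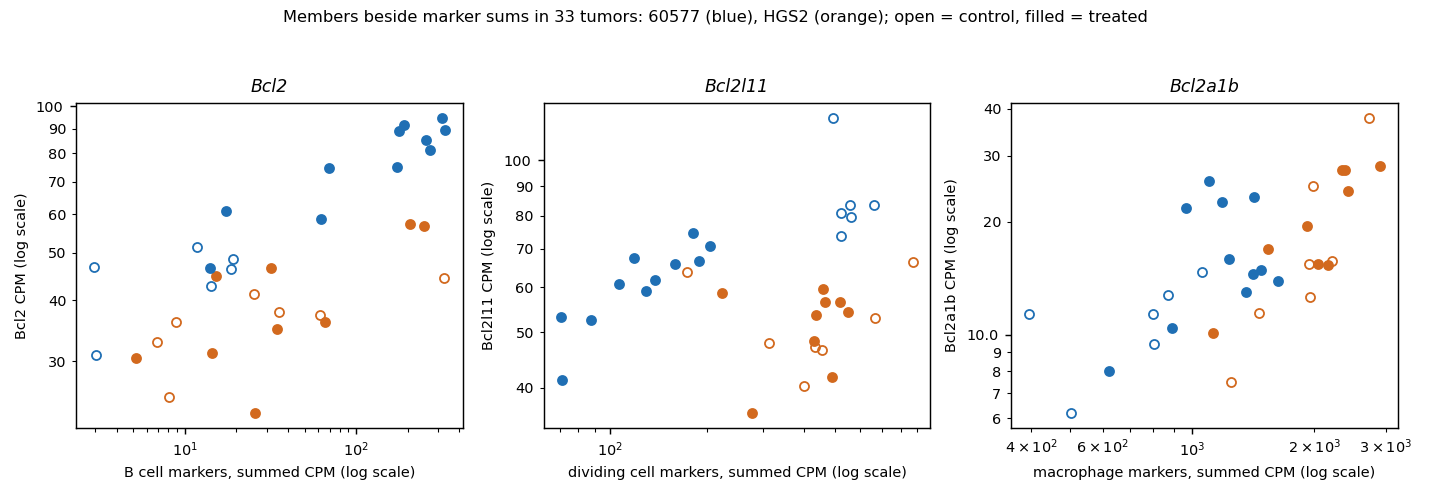
Level of 3 members (y axis, CPM, log scale) against the summed CPM of marker genes (x axis, log scale) in the 33 tumors tested, 60577 in blue and HGS2 in orange, with control tumors open and treated tumors filled. At TP2 and TP3 the treated 60577 tumors lie apart from the TP2 controls on both axes for *Bcl2* with B cell genes and for *Bcl2l11* with dividing cell genes, so no correlation with these sums is given.

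At TP3, 21 days after the last dose, 2 members were higher and 4 lower than in the TP2 controls of 60577, beside 51.4% of all genes. The count of members was 3 without TP2 control replicate 1. These comparisons share their 3 control libraries with those at TP2. *Bcl2* was at 85.3, 89.5, 94.8 and 81.5 CPM, above all 3 controls (log2 1.05 ± 0.15, edgeR adjusted p = 4.51e-05). *Mcl1* was at 312, 378, 333 and 303 CPM, again above all controls (log2 0.43 ± 0.15, edgeR adjusted p = 0.027).

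*Bcl2l11* was at 52.6, 41.3, 53.3 and 60.7 CPM, all under every control (log2 -0.80 ± 0.14, edgeR adjusted p = 2.70e-04). Its treated tumors at TP3 overlapped those at TP2, and the difference between them did not pass (log2 -0.28, edgeR adjusted p = 0.114). *Bcl2l1* was at 58.0, 54.3, 56.8 and 55.9 CPM, below every control (log2 -0.41 ± 0.11, edgeR adjusted p = 0.00501). *Bid* was lower at 17.8, 19.1, 20.2 and 22.3 CPM against 28.1, 23.5 and 22.4 CPM (log2 -0.30 ± 0.11, edgeR adjusted p = 0.0246). *Bcl2l2* (log2 -0.28 ± 0.10, edgeR adjusted p = 0.0379) was the weakest call of the group and was lost in 5 of 7 fits with 1 library left out (TP2 control replicate 1 or 3, TP3 treated replicate 1, 3 or 4, edgeR adjusted p = 0.0531 to 0.15). *Bid* was lost in 3 of 7 (TP2 control replicate 1, TP3 treated replicate 1 or 2, up to 0.148) and *Mcl1* in 3 of 7 (TP2 control replicate 1 or 3, TP3 treated replicate 2, up to 0.114). *Bak1* was at 32.8, 27.7, 28.3 and 32.1 CPM, below every control, and did not pass (log2 -0.46, edgeR adjusted p = 0.0617). It passed when the 2 libraries richest in 7SL were left out of the fit (edgeR adjusted p = 0.00652).

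Among the other BCL2 family genes at TP3, 4 of 10 were higher and 4 lower. *Bcl2a1d* (log2 1.40) and *Bcl2a1a* (log2 1.14) were higher, and *Bok*, an effector-like member (log2 -1.15), and *Bmf* (log2 -1.004) were lower. The sum of *Bcl2a1a*, *Bcl2a1b* and *Bcl2a1d* did not pass (log2 0.51, edgeR adjusted p = 0.168). *Bax* and *Bbc3* remained higher by 0.40 and 0.45 on the log2 scale. *Birc5* (log2 -3.03) and *Aifm1* (log2 -0.76) were lower and *Birc3* (log2 0.95) higher, within 2 higher and 6 lower of 14 apoptosome and caspase genes. In the death receptor arm *Cflar* (log2 0.82) and *Fas* (log2 0.47) were higher and *Tnfrsf1a* (log2 -0.34) lower.

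The cell type markers differed at TP3 as well. The adipocyte genes, 5 of 5 higher, summed to 1689, 1682, 1331 and 1155 CPM, all above the TP2 controls and treated tumors. The B cell genes summed to 256, 332, 316 and 270 CPM, the T cell genes, 6 of 6 higher, to 104, 103, 99.2 and 123 CPM and the pan-leukocyte genes, 3 of 3 higher, to 645, 657, 635 and 686 CPM. The epithelial genes, all 6 tested lower, summed to 241, 204, 265 and 324 CPM, and the dividing cell genes to 87.4, 71.5, 70.9 and 107 CPM. Of the other lists, 4 of 6 fibroblast, 3 of 6 macrophage and 1 of 4 endothelial genes were higher, 3 of 4 mesothelial genes were lower, 2 of 4 plasma cell genes were higher and 1 lower, 1 of 5 neutrophil genes was higher and 3 lower, and 0 of 6 pancreatic genes were called. Their part in the members' changes was not tested.

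**Figure D4:**
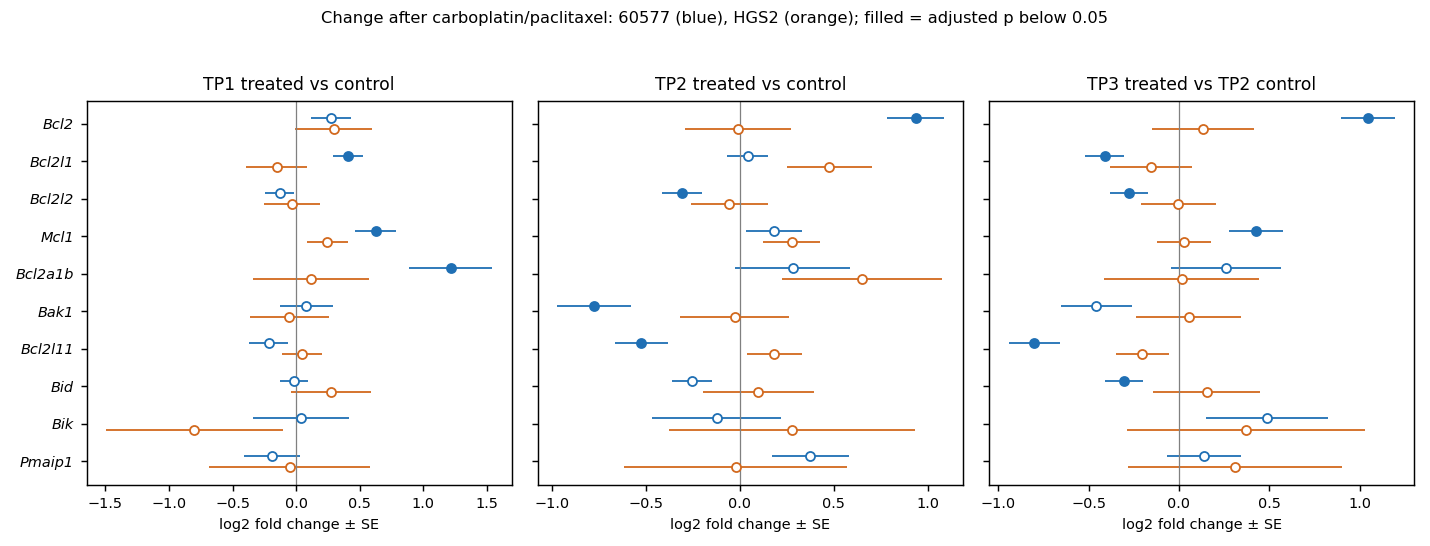
Log2 fold change with its standard error (x axis) for each member at TP1, TP2 and TP3 against TP2 controls, 60577 in blue and HGS2 in orange, with filled points where the adjusted p was below 0.05. All filled points are from 60577, and the standard errors are wider in HGS2 for most members.

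Treated tumors were also compared with each other over time. From TP1 to TP2 in 60577, *Bcl2* was higher (log2 0.56, edgeR adjusted p = 0.0199), and *Bak1* (log2 -0.72, edgeR adjusted p = 0.0221) and *Bid* (log2 -0.31, edgeR adjusted p = 0.0488) were lower, so 3 of 10 members passed beside 19.3% of all genes. None of the 3 was called without TP2 treated replicates 3 and 4 together, nor without TP1 treated replicate 1, TP2 treated replicate 3 or TP2 treated replicate 4 alone, and *Bak1* and *Bid* were also lost without TP1 treated replicate 3. From TP2 to TP3, *Bcl2l1* was the 1 member that passed, as lower (log2 -0.45 ± 0.10, edgeR adjusted p = 0.00588), beside 35% of all genes, and it too did not pass without these replicates (log2 -0.34, edgeR adjusted p = 0.0721). Between the control tumors of TP1 and TP2, 0 members and 0 genes passed by edgeR. There were 1501 genes at an unadjusted p below 0.05, DESeq2 called 107 genes and limma-voom called 0. Without 60577 TP2 control replicate 2, 37 genes passed by edgeR.

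In HGS2 the treated and control groups overlapped for most members. At TP1 and TP2, and for TP3 against TP2 controls, 0 of 10 members passed, beside 0% of all genes in each. By edgeR 413, 1233 and 406 genes had an unadjusted p below 0.05 in these comparisons, DESeq2 called 1, 9 and 5 genes, and limma-voom called 0. These counts of 0 held without the 3 libraries rich in pancreatic genes.

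*Bcl2* in HGS2 was at 32.8, 36.1, 44.4 and 37.3 CPM in the TP2 controls and at 34.9, 31.2 and 46.5 CPM in the treated tumors, with a log2 fold change of -0.01 and a 95% interval of -0.62 to 0.60. *Bcl2l11* was at 46.6, 47.8, 53.1 and 47.1 CPM in these controls and at 53.6, 56.4 and 56.5 CPM after chemo. Its treated tumors lay above the controls, at a log2 fold change of 0.18 with an interval of -0.13 to 0.50. *Bcl2l1* went from 43.6, 42.6, 34.3 and 35.6 CPM to 49.9, 50.7 and 63.6 CPM at TP2, also without overlap and without passing (log2 0.48, interval -0.01 to 0.96). The HGS2 TP1 controls, at 84.7, 40.9 and 50.8 CPM, overlapped these treated tumors.

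*Mcl1* in HGS2 was at 379, 309 and 264 CPM in TP1 controls and 405, 349 and 354 CPM after chemo, with an interval of -0.10 to 0.59 on the log2 scale. *Bcl2a1b* was at 37.9, 15.8 and 11.4 CPM in TP1 controls and 16.98, 27.5 and 24.1 CPM after chemo, with an interval of -0.87 to 1.10. The 60577 values at TP1, 0.62 for *Mcl1* and 1.22 for *Bcl2a1b*, lay just above these intervals, while the differences between the models did not pass for either gene. No marker gene of any list passed within HGS2 either.

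Among HGS2 treated tumors, 0 of 10 members passed from TP1 to TP2 or from TP2 to TP3, beside 0% of all genes by edgeR. There were 152 and 1690 genes at an unadjusted p below 0.05, DESeq2 called 1 and 144 genes, and limma-voom called 0. *Bcl2l1* (log2 -0.63, unadjusted p = 0.021 by edgeR) and *Bcl2l11* (log2 -0.39, unadjusted p = 0.0276 by edgeR) were members below that level from TP2 to TP3. Between HGS2 controls of TP2 and TP1, 0 members passed by edgeR, with 569 genes at an unadjusted p below 0.05. *Bcl2l1* was the only member below that level (log2 -0.55, unadjusted p = 0.0281 by edgeR). DESeq2 called 8 genes and limma-voom called 0. Without HGS2 TP1 control replicate 2, 49 genes passed by edgeR.

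The difference in response between the models was tested as an interaction. At TP1, 0 of 10 members differed beside 1.77% of all genes. *Bax* did, by -0.99 on the log2 scale (edgeR adjusted p = 0.0307), its rise being larger in 60577. At TP2, 1 of 10 members differed beside 10.3% of all genes: *Bcl2l11*, whose log2 fold change was higher in HGS2 by 0.70 ± 0.21 (edgeR adjusted p = 0.038), being -0.52 in 60577 and 0.18 in HGS2. *Bcl2* differed by -0.95 ± 0.33 and did not pass (edgeR adjusted p = 0.0661, 95% interval -1.64 to -0.26). It passed without 60577 TP2 control replicate 3 (log2 -1.10, edgeR adjusted p = 0.0483).

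The *Bcl2l11* difference was a weak call. It was lost in 9 of 14 fits with 1 library left out (any HGS2 TP2 treated tumor, HGS2 TP2 control replicate 1 or 4, 60577 TP2 control replicate 2 or 3, or 60577 TP2 treated replicate 3 or 4), with an edgeR adjusted p of 0.0537 to 0.111 in these and a log2 difference of 0.47 to 0.84 over all 14. It was lost as well with all 17 HGS2 tumors and without 60577 TP2 treated replicates 3 and 4 (log2 0.69, edgeR adjusted p = 0.11). Without the 3 pancreas-rich HGS2 libraries it was kept (log2 0.75, edgeR adjusted p = 0.0301), and *Bcl2* was then also called (log2 -0.92, edgeR adjusted p = 0.0481). At TP2 *Birc5* (log2 2.25), *Aifm1* (1.01) and *Xiap* (0.64) had higher log2 fold changes in HGS2 and *Birc2* (-0.87) a lower one among the apoptosome genes. In the death receptor arm *Tnfrsf1a* (0.79) and *Ripk1* (0.60) had higher ones in HGS2. Of the marker lists, 5 of 5 dividing cell genes had higher log2 fold changes in HGS2 and 3 of 6 B cell genes lower ones.

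Control tumors of the 2 models differed in 6 of 10 members, beside 51.5% of all genes, with 3 higher and 3 lower in HGS2 than in 60577. *Bak1* (log2 0.73, edgeR adjusted p = 0.00268), *Mcl1* (0.43, adjusted p = 0.00189) and *Bcl2a1b* (0.73, adjusted p = 0.0373) were higher in HGS2. *Bcl2l11* (-0.72, edgeR adjusted p = 8.69e-06), *Bcl2l1* (-0.60, adjusted p = 5.14e-04) and *Bid* (-0.55, adjusted p = 0.00616) were lower. The *Bcl2a1b* call was lost in 5 of 13 fits with 1 library left out, and its log2 difference was 0.39 (edgeR adjusted p = 0.239) without HGS2 TP1 control replicate 1, the highest control. Without the pancreas-rich libraries all 6 calls held, from -0.80 for *Bcl2l11* to 0.95 for *Bcl2a1b*, and *Bcl2l2* (log2 -0.31, edgeR adjusted p = 0.0225) and *Bik* (log2 -0.92, edgeR adjusted p = 0.0205) were also lower in HGS2. *Bid* was also lower in the HGS2 line, whereas *Pmaip1*, lower in the HGS2 line, did not pass between the control tumors. All 6 macrophage genes and all 3 pan-leukocyte genes were higher in HGS2 controls, as were all 6 fibroblast genes, and 5 of 6 epithelial genes were lower. The fibroblast sums had medians of 59458 and 36397 CPM in HGS2 controls at TP1 and TP2, against 7215 and 5507 CPM in 60577, and the cultured HGS2 cells also exceeded the 60577 cells in these genes. The part of these markers in the members' differences was not tested. Of the other BCL2 family genes *Bcl2a1d* (log2 2.99) and *Bax* (0.54) were higher in HGS2 and *Bmf* (-1.04) and *Bcl2l13* (-0.41) lower.

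*Bcl2l13* overlaps *Bid* on the other strand, so a difference in *Bid* between tumors cannot be told apart from one in *Bcl2l13* if the counting ignored strand. *Bik*, whose BH3-only protein sits largely at the endoplasmic reticulum, was the rarest member in the tumors, at 0.531 to 1.94 CPM in 60577 tumors and 0.230 to 2.29 CPM in HGS2 tumors. It was not called in any comparison with all libraries tested. *Pmaip1* ranged from 8.48 to 20.6 CPM in 60577 tumors and from 3.12 to 24.9 CPM in HGS2 tumors and was called in no comparison among tumors with all libraries tested.

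The genes whose levels followed each member most closely over the 33 tumors, after the mean of each model was subtracted, differed by member. The likeness is a Pearson r of log2 CPM, given as a description without a p, since tumors of a group share their treatment and libraries differ in composition. Differences between treated and control groups were not subtracted, so r also holds the separation of these groups. *Bcl2* was most like B630019A10Rik (r = 0.92), *Tespa1* (0.91) and *Inpp4b* (0.90). *Bcl2a1b* was most like *Fcer1g* (0.91), *Ctss* (0.89) and *Clec7a* (0.88), and *Mcl1* like *Sh2b2* (0.85), *Tnf* (0.83) and *Plekho2* (0.83).

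*Bak1* had the highest likenesses of the list, to the proteasome genes *Psmd2* (r = 0.93) and *Psmd14* (0.93) and to cofilin, *Cfl1* (0.93). *Bcl2l11* was most like *Dnajc16* (0.83), *Zfand4* (0.81) and *Alms1* (0.80), and *Bid* like *Arpc1b* (0.80), *Acsl5* (0.79) and *Icam1* (0.78). *Bcl2l1* was most like *Arl4c* (0.79), *Spred3* (0.78) and *Tarm1* (0.77), and *Bcl2l2* like *Plpp5* (0.82), *Cmtm4* (0.81) and *Tmem184a* (0.77). The leading genes of *Bik* were *Hmcn2* (0.79), *Arhgef37* (0.78) and *St6galnac2* (0.78). Those of *Pmaip1* were *Bdh1* (0.71), *Nubp1* (0.71) and *Tnfsf8* (0.69), the lowest of the list.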

How the data were processed

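RNA was sequenced from 34 omental tumors and 4 cell line libraries. The authors trimmed reads (Trim Galore 0.6.5), aligned them to GRCm38/mm10 (STAR 2.7.0f) and deposited RSEM expected counts per gene, in separate tables for tumors and cell lines. The expected counts were rounded and kept where at least 25% of libraries reached 1 CPM (16241 genes in tumors, 13742 in cell lines). edgeR 4.0.16 in R 4.3.3 (TMM scaling, quasi-likelihood F test) was fitted to each model, to both for differences between models, and to the cell lines, and a gene was called at a Benjamini-Hochberg adjusted p below 0.05 over all genes. The standard error is the log2 fold change divided by the square root of F. Printed CPM were scaled over all tumors, or over the cell lines, and RPKM used exon lengths of GENCODE M21. Limma-voom (limma 3.58.1), DESeq2 1.42.0, other scalings and filters, a replicate block and single libraries left out were alternatives. The fit was also run on simulated data, and the outcome is not reported here.

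Every member is named, and from each list of other pathway genes up to 4 called genes with the largest log2 fold change in a comparison, any gene needed beside a member of its role, and the 3 genes most like each member. The members, lists and tests were chosen with earlier results of these data known. HGS2 TP3 treated replicate 1 was left out of the tests, following the study's own tables. Days, doses and ages come from the study's methods, since the labels give only time point and treatment. Expected counts of genes that share sequence or overlap depend on how RSEM divided reads. The labels and the study's methods do not pair samples by replicate number. Some genes of the lists are not reported here. Depth limits the precision of low genes such as *Bik*, and limits from a count of 0 cover counting error only.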

Additional observations from a re-analysis of the deposited data

Results flagged for a closer look

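*Pmaip1* stood at 24.9 CPM in HGS2 TP2 control replicate 3, far from the other 3 controls of that group, which were at 3.12, 6.59 and 6.32 CPM. It was the 1 such library among 40 groups of 4 tumors by member examined, and chance alone flags about 1 group in 20. Without that library, *Pmaip1* was lower in HGS2 than in 60577 control tumors (log2 -0.72, edgeR adjusted p = 0.0251). The library was singled out by its own *Pmaip1* value, so this p cannot be taken at its face value and nothing is drawn from it. With all libraries the log2 difference was -0.25 and not called, and 12 of 13 fits with 1 library left out gave the same.

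The TP2 response of *Bcl2l11* differed between the models, by 0.70 on the log2 scale (HGS2 minus 60577), with the limits given with that test.

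*Bcl2* was at 86.7 CPM in HGS2 TP3 treated replicate 1, a library outside the tests, against 25.3 to 44.4 CPM in the HGS2 control tumors. Treated HGS2 tumors inside the tests were also above the highest control, at 44.9 and 57.3 CPM (TP1 replicates 2 and 3), 46.5 CPM (TP2 replicate 3) and 56.9 CPM (TP3 replicate 2). The B cell genes summed to 665 CPM in that library. They also reached 325 CPM in an HGS2 TP2 control, a group with *Bcl2* at 32.8 to 44.4 CPM. A link between the B cell genes and *Bcl2* in HGS2 was not tested.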

How the results depend on the processing

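With 1 library left out at a time, 1169 of 1222 member values kept their state, called or not called. Under the other scalings, filters, tests and designs 1428 of 1489 did, and 0 called values changed sign. Both totals include values not called in the main fit, as all within HGS2 were, so they do not measure how often a call was kept. With 1 library left out, the call was lost in 9 of 14 fits for the *Bcl2l11* difference at TP2 and in 5 of 7 for *Bcl2l2* at TP3. The calls on *Bcl2* at TP2 and TP3, *Mcl1* at TP1, *Bak1* at TP2, *Bcl2l1* at TP3 and *Bcl2l11* at TP2 and TP3 in 60577 held without each library in turn. The number of members called ranged from 2 to 3 at TP1, from 3 to 5 at TP2, from 3 to 6 at TP3, from 0 to 4 between treated TP2 and TP1 and from 1 to 2 between treated TP3 and TP2 in 60577. It ranged from 0 to 1 for the difference in response at TP2, from 5 to 6 between control tumors and from 0 to 4 between cell lines. It was 0 in each HGS2 comparison and for the difference at TP1. The lowest counts were without 60577 TP2 control replicate 1 at TP3 (3), without TP1 treated replicate 1 or TP2 treated replicate 3 between treated TP2 and TP1 (0), and without 60577 cell line replicate 2 (0). Over all genes, leaving out 1 library gave 505 (TP1 treated replicate 1) to 5714 (TP2 treated replicate 1) between treated TP2 and TP1, 2861 (TP2 treated replicate 3) to 7861 between treated TP3 and TP2, 68 to 797 and 459 to 2442 for the differences at TP1 and TP2, and 503 to 5095 between cell lines. Without HGS2 cell line replicate 2, which left that line with 1 library assumed to vary like the others, 4 members were called.

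A log2 fold limit of 1 left 1 member at TP1, 0 at TP2 and 1 at TP3 in 60577, 0 between treated times, 0 for the difference at TP2 and 0 between control tumors. With both models in 1 fit, 3 members were called at TP3 and 0 between treated TP2 and TP1. DESeq2 called 2 members for the difference at TP2, and all 17 HGS2 tumors gave 0. Chosen after seeing the data, the 7SL share as a covariate gave 0 members between treated TP2 and TP1, between treated TP3 and TP2 and for the difference at TP2, as did leaving out the 2 TP2 treated libraries highest in 7SL, and leaving out the 3 pancreas-rich libraries gave 2 for that difference. The cause of these changes was not tested.

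The residuals of same-numbered tumors correlated at a median of -0.04 in 60577 (-0.42 to 0.32) and -0.08 in HGS2 (-0.49 to 0.37), against 0.008 and 0.02 for the other pairs. These medians gave no sign of pairing by number, which does not exclude shared handling of some samples. In the cell lines the value was -0.15, but with 2 libraries per line the residuals mirror each other, so it cannot show pairing or its absence. With the replicate block, 0 members were called for the difference at TP2 and 3 between control tumors, and with the block and a length and GC offset 0 between treated TP2 and TP1 and 2 between control tumors. The block gave 1526 genes between treated TP2 and TP1, 158 and 862 for the differences at TP1 and TP2 and 5036 between control tumors. Crossing the numbers of the cell lines in the block gave 2 members and 2609 genes.

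Counts over all genes moved by more than 1.5 times as follows. The fold limit gave 2535, 3969 and 3966 genes at TP1, TP2 and TP3 in 60577, 977 and 1278 between treated times and 3577 between control tumors. No filter gave 113 and 937 for the differences at TP1 and TP2 and 4995 between cell lines, DESeq2 gave 998 and 2703 for these differences, and all 17 HGS2 tumors gave 179 and 1054. One fit of both models gave 2873 at TP1 and 652 and 2995 between treated times in 60577. The 7SL covariate gave 5702 at TP2, 1528 and 15 between treated times and 445 and 360 for the differences, and leaving out the 2 libraries gave 298 and 709 between treated times and 273 for the difference at TP2. The block with the offset gave 1494 between treated TP2 and TP1, 169 and 982 for the differences and 5268 between control tumors, and leaving out the pancreas-rich libraries gave 454 for the difference at TP1.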
